A study of Homo sapiens with 6 samples.

Results

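BCR, ABL1, ABL2, FYN, LYN, SRC, YES1, LCK and CSK were examined in RNA-seq libraries of K562 cells. These 9 genes encode both partners of the BCR-ABL1 fusion, the second ABL kinase, 5 kinases of the Src family and the kinase that restrains that family. They were chosen by name, as the rows of the deposited RPKM table that carry these symbols, and the same genes were taken from the normalized count table by their Entrez identifiers. They are 9 of 28395 Entrez genes in the count table and 9 of 60131 Ensembl rows in the RPKM table. Libraries of K562 cells with RUNX1 R320* (R320*, 3 libraries) were compared with libraries of K562 cells labelled wild type for RUNX1 (WT, 3 libraries). RUNX1 is a DNA-binding transcription factor of blood development, and the asterisk denotes a premature stop codon. Both genotypes were grown in the same medium, RPMI-1640 with fetal bovine serum and antibiotics, and neither received a further agent per the labels. The labels do not say how the R320* change was made, whether the R320* cells are 1 clone, or whether the 3 libraries came from separate cultures. The p-values therefore measure only the spread between these libraries, which may be technical.

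K562 is an established line from a human chronic myeloid leukaemia, and it carries the Philadelphia chromosome, in which the front of BCR is joined to most of ABL1. The fusion protein is a tyrosine kinase that is always active and on which the growth of these cells depends. Src-family kinases sit at the inner face of the membrane, relay signals from surface receptors, and in chronic myeloid leukaemia cells LYN and other members act beside BCR-ABL1. CSK phosphorylates the tail of Src-family kinases and holds them inactive, and phosphatases such as CD45, the product of PTPRC, remove that phosphate.

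The edges that the fusion joins in K562 are shown because they set what the BCR and ABL1 values can mean. In GRCh38, BCR exon 14 ends at chr22:23290384-23290413 and ABL1 exon 2 begins at chr9:130854064-130854093, both on the plus strand. The last 30 bases of the BCR exon and the first 30 of the ABL1 exon are given 5′ to 3′, and capitals mark the 8 bases that touch the joint.
BCR exon 14 end: actcagccactggatttaagcaGAGTTCAA
ABL1 exon 2 start: AAGCCCTTcagcggccagtagcatctgact
In the reference transcripts, 49.9% of the exonic bases of BCR and 92.0% of those of ABL1 lie on the side that enters the fusion. Both deposited tables hold 1 value per gene, so transcripts of normal BCR, normal ABL1 and the fusion cannot be told apart in them.

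Between 30064538 and 31306435 reads were assigned to genes in the R320* libraries, against 29058471 to 30595857 in the WT libraries. The levels called counts below are the authors' normalized read counts, in which 1 read stood for between 0.953 and 1.05. A log2 fold change is the mean log2(normalized count + 1) of R320* libraries less that of WT libraries. It was tested with limma on the 14299 genes that reached 10 normalized counts in 3 or more libraries, with Benjamini-Hochberg adjustment over all of them. In that fit 7685 genes (53.7%) had an adjusted p below 0.05, 3771 (26.4%) of them higher in R320* and 3914 (27.4%) lower. In the RPKM table, 5675 of 17769 genes (31.9%) passed, 2692 (15.1%) higher and 2983 (16.8%) lower. When every RPKM library was scaled to the same sum, 3402 were higher and 2396 lower. RUNX1 itself had 5209, 5026 and 5261 normalized counts in R320* libraries and 2969, 2922 and 2908 in WT libraries, a log2 fold change of 0.82 (SE 0.04, adjusted p = 4.40e-11 by limma). A gene total does not show the R320* change. All 7 erythroid genes used to check the cell line were detected in every library (GATA1, TAL1, KLF1, EPOR, HBG2, HBZ and TFRC), with 5 higher and 1 lower in R320*. The lower one was GATA1, which averaged 6124 in R320* and 8964 in WT (log2 fold change −0.55, adjusted p = 2.83e-09 by limma). The summed normalized counts of the 7 genes, most of them from HBG2 and TFRC, were 123729 to 145716 in R320* libraries and 104851 to 108471 in WT libraries. R320* replicate 1 stood above replicates 2 and 3 for HBG2 (70251 against 55484 and 55271) and HBZ (16799 against 10967 and 11330). HBZ did not pass the test (adjusted p = 0.470 by limma).

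Among the 9 genes, FYN fell in R320* cells by more than a factor of 10, while YES1 and LYN rose by less than a factor of 2. BCR, ABL1 and ABL2 were slightly higher and passed the test in the count table alone, SRC and CSK did not pass, and LCK was close to absent. Of the 9, 8 could be tested on normalized counts, and 6 passed, against the 53.7% of all genes tested: 5 were higher in R320* and 1 was lower. That count is not far above the share of all genes. The libraries of the genotypes did not overlap for the same 6 genes, where 59.8% of all genes tested showed no overlap. The median log2 fold change over the 8 was 0.17, beside 0.01 over all genes tested. On RPKM values 8 were again tested and 3 passed, FYN, LYN and YES1, against 31.9% of all genes, and 4 showed no overlap, against 47.0% of all genes. With edgeR's quasi-likelihood test on the recovered reads, 6 members and 53.6% of all genes passed. FYN ranked 154 of 14299 genes by absolute log2 fold change in the count table and 156 of 17769 in the RPKM table. A change that passes the test and reaches a factor of 2 was seen for 11.4% of genes in counts and 7.69% in RPKM, and FYN was the 1 member among them.

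**Figure D1:**
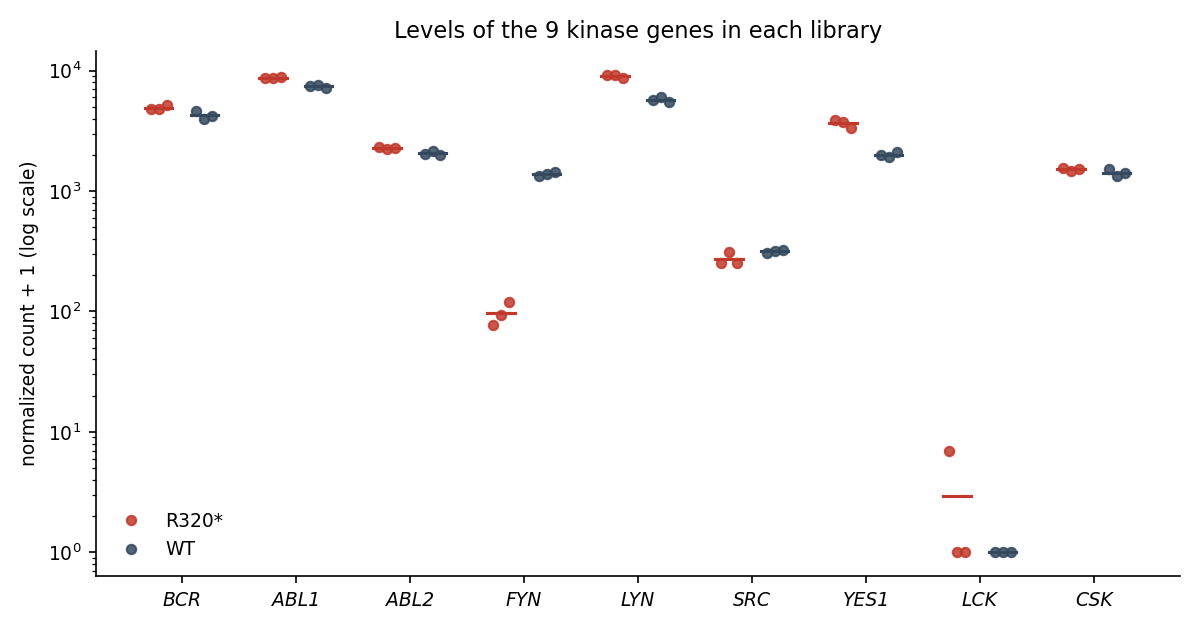
Normalized count + 1 (log axis) of the 9 genes in each of the 3 R320* and 3 WT libraries; points are libraries and bars are means. FYN stands at 75.5 to 118 normalized counts in R320*, more than a factor of 10 below WT, while LYN and YES1 stand above WT in every R320* library.

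BCR encodes a protein with a coiled coil, a serine/threonine kinase domain and GTPase-regulating domains, and its promoter drives the fusion gene. It lies at chr22:23180509-23318037 (GRCh38, Entrez 613). R320* libraries held 4798, 4767 and 5183 normalized counts, against 4591, 3972 and 4192 in WT libraries. Every R320* library lay above every WT library, the closest pair being R320* replicate 2 and WT replicate 1. The mean was 4916 ± 232 in R320* and 4251 ± 314 in WT (SD, n = 3 each), a log2 fold change of 0.21 (SE 0.05, adjusted p = 0.0025 by limma). The RPKM values did not pass the test, with 24.2, 25.3 and 24.2 in R320* and 26.4, 20.0 and 20.4 in WT. There the WT libraries lay on both sides of the R320* libraries, and the log2 fold change was 0.15 (adjusted p = 0.341 by limma), but 0.28 (adjusted p = 0.0207) without WT replicate 1.

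BCR has several partial copies in the genome, and reads could be divided among them. Of 9 rows named as BCR pseudogenes, 6 were listed at 0 RPKM in every library. BCRP2 averaged 1.49 RPKM in R320* and 2.41 in WT, and BCRP3 0.512 in R320* and 0.866 in WT. BCRP8, whose start is given 468 bases from that of BCR, had 5.76, 5.73 and 7.38 RPKM in R320* and 2.50, 1.16 and 4.84 in WT. The copies were thus lower than BCR in every library but did not move together. BCRP8 averaged 6.29 RPKM in R320* and 2.83 in WT, beside 24.5 in R320* and 22.2 in WT for BCR. The BCR values are uncertain to that extent, and the part of BCRP8 in the BCR difference was not tested.

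ABL1 is the tyrosine kinase that supplies the catalytic part of the fusion, and ABL2 is its close relative with a longer actin-binding tail. ABL1 (chr9:130713043-130887675, Entrez 25) had 8674, 8702 and 8808 normalized counts in R320* and 7501, 7628 and 7124 in WT. The R320* libraries were tightly grouped above all WT libraries, at 8728 ± 70.6 in R320* against 7418 ± 262 in WT (SD, n = 3 each). The log2 fold change was 0.24 (SE 0.04, adjusted p = 4.25e-05 by limma). ABL1 RPKM values overlapped between genotypes, with 45.1, 40.3 and 39.3 in R320* and 36.7, 41.7 and 34.3 in WT, a log2 fold change of 0.15 (adjusted p = 0.249).

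ABL2 (chr1:179099330-179229677, Entrez 27) had 2321, 2220 and 2263 normalized counts in R320* and 2042, 2164 and 2003 in WT. The genotypes were separate, but only narrowly, and the log2 fold change was 0.13 (SE 0.05, adjusted p = 0.0309 by limma). That call was lost when R320* replicate 1 (adjusted p = 0.0934), WT replicate 1 (0.0885) or WT replicate 3 (0.110) was left out. In RPKM, ABL2 measured 7.17, 7.51 and 7.92 in R320* and 6.46, 7.12 and 6.68 in WT, again without overlap and without passing the test (log2 fold change 0.16, adjusted p = 0.226).

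On the per-length RPKM scale ABL1 was 1.70 ± 0.15 times the level of BCR in R320* and 1.72 ± 0.35 times in WT (SD, n = 3 libraries each). The ratio of ABL1 to ABL2 was 5.54 in R320* and 5.56 in WT. The balance among the fusion partners and the second ABL kinase therefore differed by less than the spread between libraries.

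FYN is a Src-family kinase best known from T cells and the brain and also present in other blood cells. It lies at chr6:111660332-111873452 (Entrez 2534), on the minus strand. R320* libraries held 75.5, 93.3 and 118 normalized counts, from 77, 94 and 124 reads, against 1336, 1385 and 1433 in WT libraries. The highest R320* library was more than a factor of 10 below the lowest WT library. FYN averaged 95.6 ± 21.4 in R320* and 1384 ± 48.6 in WT (SD, n = 3 each), 14.5-fold lower in R320*, with a log2 fold change of −3.86 (SE 0.13, adjusted p = 6.69e-13 by limma). RPKM values were 2.60, 2.23 and 2.83 in R320* and 27.2, 26.0 and 29.8 in WT. This was 10.8-fold lower, with a log2 fold change of −3.39 (SE 0.11, adjusted p = 5.97e-06). In bulk RNA, fewer cells that express FYN and less FYN RNA in each cell cannot be told apart.

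As FYN is also a T-cell kinase, 10 T-cell marker genes were examined. CD2, CD28 and CD8A had no read in any library, and CD247 and CD4 stayed at or near 0. CD3E had 1.96, 0.992 and 7.62 normalized counts in R320* and 8.37, 9.97 and 27.3 in WT, below the filter. Of the list, 3 markers passed the filter, and 1 of them fell, where 27.4% of all genes tested were lower. That marker, CD3D, a chain of the T-cell receptor complex, averaged 467 normalized counts in R320* and 728 in WT (log2 fold change −0.64, adjusted p = 1.13e-05 by limma). CD3G averaged 201 in R320* and 211 in WT (adjusted p = 0.768 by limma). LAT averaged 71.3 in R320* and 68.4 in WT (adjusted p = 0.879), so neither passed. The summed level of the list, most of it from CD3D, was 722 to 801 in R320* and 1014 to 1050 in WT. The part of these genes in the FYN result was not tested. Of 11 markers of B cells, monocytes, fibroblasts and epithelia, 5 were tested, 2 were higher and 1 was lower, beside the 53.7% of all genes that passed. Their summed level was 8059 to 8240 in R320* and 5860 to 5983 in WT, most of it from 2 genes. EPCAM, an epithelial adhesion molecule, averaged 5150 in R320* and 2326 in WT, and COL1A2, a collagen chain, averaged 2725 in R320* and 3388 in WT. COL1A1, its partner chain, averaged 101 in R320* and 64.7 in WT (log2 fold change 0.61, adjusted p = 0.0313 by limma).

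The sequence in front of FYN is shown because RUNX1, the gene changed in these cells, encodes a factor that binds TGTGGT and TGCGGT. The 250 bases before a start of FYN were taken from RefSeq (GRCh38.p14, chr6:111873453-111873702, minus strand), and capitals mark the 1 match in them, which reads TGCGGT on the other strand and starts 201 bases before the start.
FYN promoter: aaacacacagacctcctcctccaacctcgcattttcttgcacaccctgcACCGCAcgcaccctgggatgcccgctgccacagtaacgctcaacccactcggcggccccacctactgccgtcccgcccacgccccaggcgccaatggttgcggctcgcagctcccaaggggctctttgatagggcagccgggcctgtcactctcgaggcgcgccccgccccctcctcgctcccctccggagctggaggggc
RefSeq gives 4 windows for FYN, at different starts, of which this is the one at the outer end of the gene, and 2 of the 4 held a match. Across 35116 windows of 300 bases at RefSeq gene starts, searched on both strands, 13.1% held TGTGGT, 7.29% held TGCGGT and 19.6% held either. The kinase genes had 11 windows in all, from 7 of the 9 genes, and 4 of the 11 held a match, in ABL2, FYN and LCK. A match is only a run of letters, and RUNX1 binding was not measured in these libraries.

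**Figure D2:**
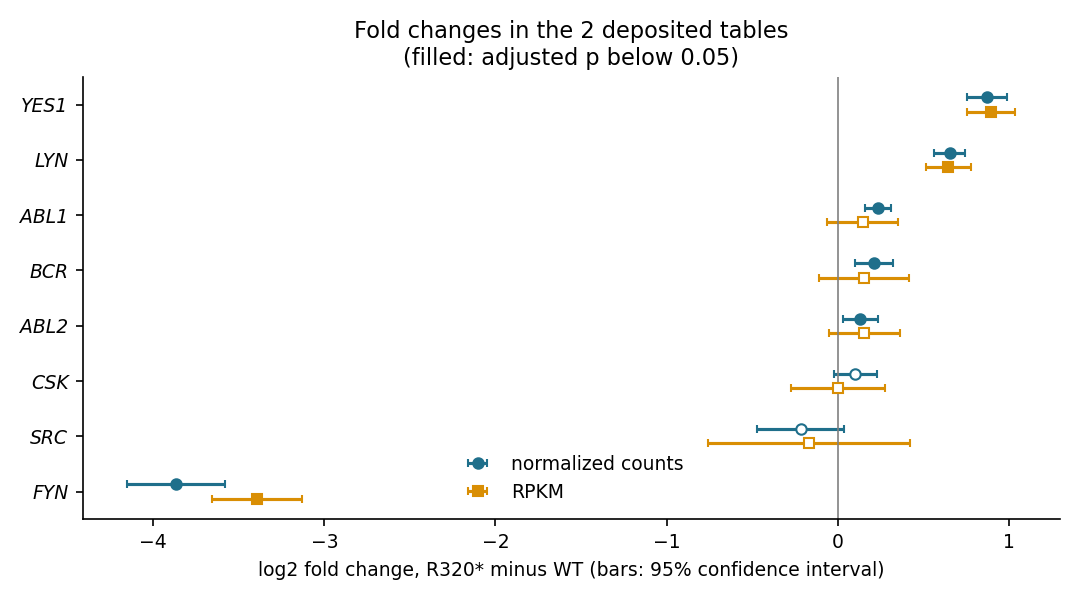
Log2 fold change, R320* minus WT, of the 8 tested genes in the normalized count table and the RPKM table, with 95% confidence intervals; filled symbols have an adjusted p below 0.05 (limma). FYN lies far to the left in both tables, LYN and YES1 lie to the right in both, and BCR, ABL1 and ABL2 are filled in the count table alone.

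LYN is the main Src-family kinase of myeloid and B cells and a known companion of BCR-ABL1 in leukaemia. It lies at chr8:55879835-56014169 (Entrez 4067). LYN had 9261, 9130 and 8656 normalized counts in R320* and 5676, 6048 and 5484 in WT. No WT library came close to the R320* libraries. The means were 9016 ± 318 in R320* and 5736 ± 287 in WT (SD, n = 3 each), 1.57-fold higher, with a log2 fold change of 0.65 (SE 0.04, adjusted p = 1.58e-09 by limma). In RPKM, LYN measured 62.8, 66.7 and 61.2 in R320* and 42.7, 40.4 and 38.7 in WT, with the same log2 fold change of 0.65 (adjusted p = 0.000292).

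YES1 is a widely expressed Src-family kinase and a close relative of SRC and FYN. It lies at chr18:721588-812753 (Entrez 7525), near the tip of the short arm. YES1 had 3889, 3708 and 3364 normalized counts in R320* and 1998, 1900 and 2089 in WT. The genotypes were widely separated, with means of 3654 ± 267 in R320* and 1996 ± 94.5 in WT (SD, n = 3 each). This was 1.83-fold higher, with a log2 fold change of 0.87 (SE 0.06, adjusted p = 1.39e-09 by limma). RPKM gave 37.1, 40.1 and 38.9 in R320* and 19.8, 20.5 and 21.9 in WT, a log2 fold change of 0.90 (SE 0.06, adjusted p = 9.59e-05). An antisense gene, AP001020.3, shares 154 of the 5100 exonic bases of YES1, and it measured 0.657 RPKM in R320* and 0.387 in WT, far below YES1 itself.

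SRC, the founding member of the family, was one of the lowest of the 8 genes tested. It lies at chr20:37344699-37406050 (Entrez 6714) and had 252, 313 and 253 normalized counts in R320*, against 305, 317 and 324 in WT. R320* replicate 2 fell among the WT libraries and the other 2 lay below them. The log2 fold change was −0.22 (SE 0.12, 95% confidence interval −0.47 to 0.04, adjusted p = 0.142 by limma). Without R320* replicate 2 it was −0.32 with an adjusted p of 0.0459, so 1 library set which side of the threshold SRC fell on. In RPKM, SRC measured 2.51, 2.64 and 2.35 in R320* and 1.90, 3.40 and 3.46 in WT, with WT replicate 1 below every R320* library.

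LCK, the Src-family kinase of T cells, was close to absent. At chr1:32251265-32286165 (Entrez 3932), 6 reads were seen in R320* replicate 1 (5.88 normalized counts) and none in the other 5 libraries. No fold change is given, since LCK was below the filter in both tables and at 0 in WT. RPKM values were 0.150, 0.140 and 0.191 in R320* and 0 in all 3 WT libraries. The RPKM table thus gave LCK a level in 2 R320* libraries in which the count table held no read.

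A further 3 Src-family genes were no source of sizeable expression. BLK had no read in any library, and FGR had at most 0.992 normalized counts in R320* and 4.04 in WT. FRK, a more distant relative, had 12.7, 9.92 and 13.3 normalized counts in R320* and 0, 1.99 and 4.04 in WT, below the filter. In the RPKM table FRK averaged 0.866 in R320* and 0.858 in WT, a log2 fold change of 0.00 (adjusted p = 0.993), so the tables differ on this gene too.

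CSK, the kinase that holds Src-family members inactive, lies at chr15:74782080-74803197 (Entrez 1445). It had 1567, 1469 and 1534 normalized counts in R320* and 1516, 1342 and 1401 in WT. The genotypes overlapped, and the log2 fold change was 0.10 (SE 0.06, 95% confidence interval −0.02 to 0.23, adjusted p = 0.155 by limma). CSK RPKM values were 17.2, 18.0 and 16.5 in R320* and 20.4, 15.0 and 16.7 in WT, with a log2 fold change of −0.00069 and a 95% confidence interval of −0.27 to 0.27.

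The order of the 9 genes by RPKM, the scale that allows levels to be compared between genes, differed most in the place of FYN. In R320* cells LYN was highest at 63.6, followed by ABL1 at 41.6 and YES1 at 38.7, whose libraries overlapped. BCR followed at 24.5, CSK at 17.2 and ABL2 at 7.53, each below the gene before it in every library. FYN at 2.55 and SRC at 2.50 overlapped, and LCK came last at 0.160. In WT cells LYN at 40.6 and ABL1 at 37.6 overlapped at the top. FYN at 27.7 followed, and each of BCR at 22.2, YES1 at 20.7 and CSK at 17.4 overlapped the gene before it. ABL2 at 6.76, SRC at 2.92 and LCK at 0 came last.

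Summed over 8 Src-family genes (FYN, LYN, SRC, YES1, LCK, FGR, BLK and FRK), RPKM reached 108 ± 3.57 in R320* and 92.8 ± 1.75 in WT (SD, n = 3 each). FYN supplied 2.36% ± 0.34 of this sum in R320* and 29.8% ± 1.51 in WT. LYN supplied 58.7% in R320* and 43.8% in WT, and YES1 35.7% in R320* and 22.4% in WT. The R320* cells thus held slightly more transcript of these genes in all, made up almost wholly of LYN and YES1. SRC supplied 2.31% in R320* and 3.15% in WT. LYN RPKM was 25.2 times that of FYN in R320* and 1.47 times in WT, and YES1 was 15.3 times FYN in R320* and 0.751 times in WT. Neither ratio overlapped between genotypes, which follows from FYN being lower and LYN and YES1 higher, each without overlap. The sum of the 8 genes over CSK was 6.29 ± 0.13 in R320* and 5.42 ± 0.80 in WT. No test was run on these sums, shares and ratios.

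**Figure D3:**
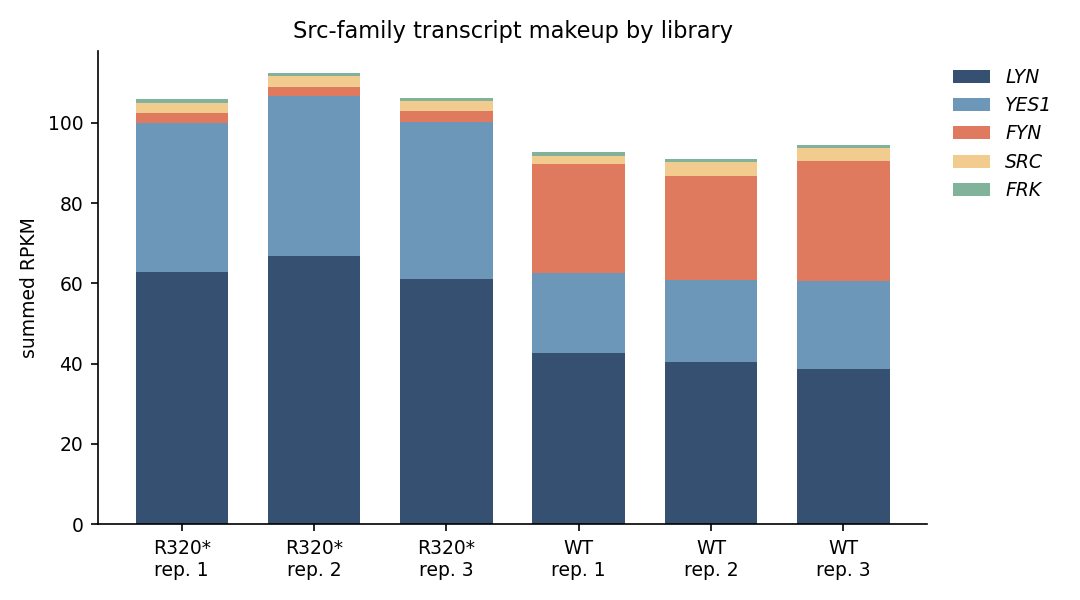
RPKM of LYN, YES1, FYN, SRC and FRK in each library, stacked by gene, for 3 R320* and 3 WT libraries. LCK, FGR and BLK, at or near 0, are not drawn. The FYN block is thin in every R320* library (on average 2.36% of the sum over 8 Src-family genes). It is large in every WT library (29.8%), while the stacks are somewhat higher in R320*.

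The genes that set the state of Src-family kinases were led by PTPRC, which encodes CD45. PTPRC had 66.7, 69.5 and 53.4 normalized counts in R320* and 1210, 1197 and 1163 in WT. All R320* libraries were far below WT, and PTPRC fell by 4.22 on the log2 scale (adjusted p = 1.08e-13 by limma). CBLB, a ubiquitin ligase that acts on tyrosine kinases and their partners, averaged 347 ± 14.5 in R320* and 931 ± 10.4 in WT (log2 fold change −1.42, adjusted p = 2.67e-10). MATK, a relative of CSK that can phosphorylate the same tail, rose, with 3164 ± 274 in R320* and 1991 ± 62.2 in WT (log2 fold change 0.66, adjusted p = 5.66e-08). PTPN11, the phosphatase SHP2, averaged 5610 in R320* and 6869 in WT (−0.29, adjusted p = 5.32e-06). Of the 13 regulators listed, 11 were tested; 2 were higher, 5 lower and 4 did not pass, with a median of −0.14 beside 0.01 over all genes. PAG1, the membrane adaptor that recruits CSK, was below the filter in both genotypes. This list and those that follow are described by their counts, beside the 26.4% of all genes that were higher and the 27.4% that were lower, and no list was tested as a group.

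Of 12 listed substrates of Src-family kinases, 9 were tested, and 3 were higher, 2 lower and 4 did not pass (median 0.03), close to the 53.7% of all genes that passed. SKAP2, an adaptor that Src-family kinases phosphorylate, averaged 875 in R320* and 1261 in WT (log2 fold change −0.53, adjusted p = 5.63e-06 by limma). PXN, the focal adhesion protein paxillin, averaged 1358 in R320* and 1785 in WT (−0.40, adjusted p = 2.60e-05). NEDD9, a docking protein of the p130Cas family, had 35.3, 46.6 and 38.1 normalized counts in R320* and 6.28, 1.99 and 4.04 in WT. Its WT libraries were all under the filter of 10, so it was tested only through its R320* values, and no fold is given. NEDD9 is nonetheless counted among the 3 higher and in the median of the list. CTTN, which encodes the actin-binding protein cortactin, averaged 7201 in R320* and 6641 in WT (0.12, adjusted p = 0.0142).

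All 19 listed adaptors and effectors of BCR-ABL1 were tested; 4 were higher, 11 lower and 4 did not pass, with a median log2 fold change of −0.33 beside 0.01 over all genes. NCK2, an SH2/SH3 adaptor, averaged 294 ± 22.7 in R320* and 922 ± 72.2 in WT (−1.65, adjusted p = 2.81e-10 by limma). SOS1, the exchange factor that links GRB2 to RAS, averaged 3328 in R320* and 4690 in WT (−0.50, adjusted p = 2.17e-08). CRKL, the best known substrate of BCR-ABL1, went the other way, with 24639 ± 269 in R320* and 18923 ± 434 in WT (0.38, adjusted p = 3.71e-08). INPP5D, the inositol phosphatase SHIP1, had 1.96, 2.98 and 5.72 normalized counts in R320* and 113, 98.7 and 155 in WT. Its R320* libraries were all under the filter of 10, so it was tested only through its WT values, and no fold is given. DOK2, a docking protein phosphorylated by BCR-ABL1 that is named after its values were seen, had 0, 0 and 1.91 in R320* and 64.9, 72.8 and 88.0 in WT, with the same limit. INPP5D and DOK2 are nonetheless counted among the 11 lower and in the median of the list. UBASH3B, a phosphatase of tyrosine kinases likewise named after its values were seen, averaged 382 in R320* and 173 in WT (1.14, adjusted p = 2.09e-06).

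Partners of the ABL kinases in the control of actin were tested for 11 of 12 listed genes, of which 2 were higher, 4 lower and 5 did not pass (median −0.05). The ABL interactors ABI2 and ABI1, subunits of the WAVE complex, were both lower. ABI2 averaged 975 ± 27.4 in R320* and 1933 ± 70.7 in WT (log2 fold change −0.99, adjusted p = 3.09e-10 by limma), and ABI1 averaged 980 in R320* and 1309 in WT (−0.42, adjusted p = 3.23e-05). WASF1, another WAVE subunit, averaged 206 in R320* and 510 in WT (−1.31, adjusted p = 6.40e-08). PTPN12, a phosphatase linked to ABL1 through the adaptor PSTPIP1, averaged 2046 in R320* and 3112 in WT (−0.60, adjusted p = 1.50e-08). WASF3, a further WAVE protein named after its values were seen, averaged 45.0 in R320* and 16.3 in WT (1.44, adjusted p = 0.00387). WASF2, likewise named after its values were seen, averaged 8521 in R320* and 8811 in WT and did not pass (−0.05, adjusted p = 0.278).

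Of 17 listed cytoplasmic tyrosine kinases of other families, 13 were tested; 2 were higher, 5 lower and 6 did not pass, with a median of −0.02. BTK averaged 1930 in R320* and 2565 in WT (log2 fold change −0.41, adjusted p = 3.98e-06 by limma), and its relative TEC averaged 659 in R320* and 866 in WT (−0.40, adjusted p = 0.000561). The focal adhesion kinase PTK2 averaged 5134 in R320* and 4250 in WT (0.27, adjusted p = 1.01e-05), and TNK2 averaged 1255 in R320* and 963 in WT (0.38, adjusted p = 0.000327). TNK1, named after its values were seen, had the largest called change of this list, with 98.2 in R320* and 172 in WT (−0.81, adjusted p = 0.00147).

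**Figure D4:**
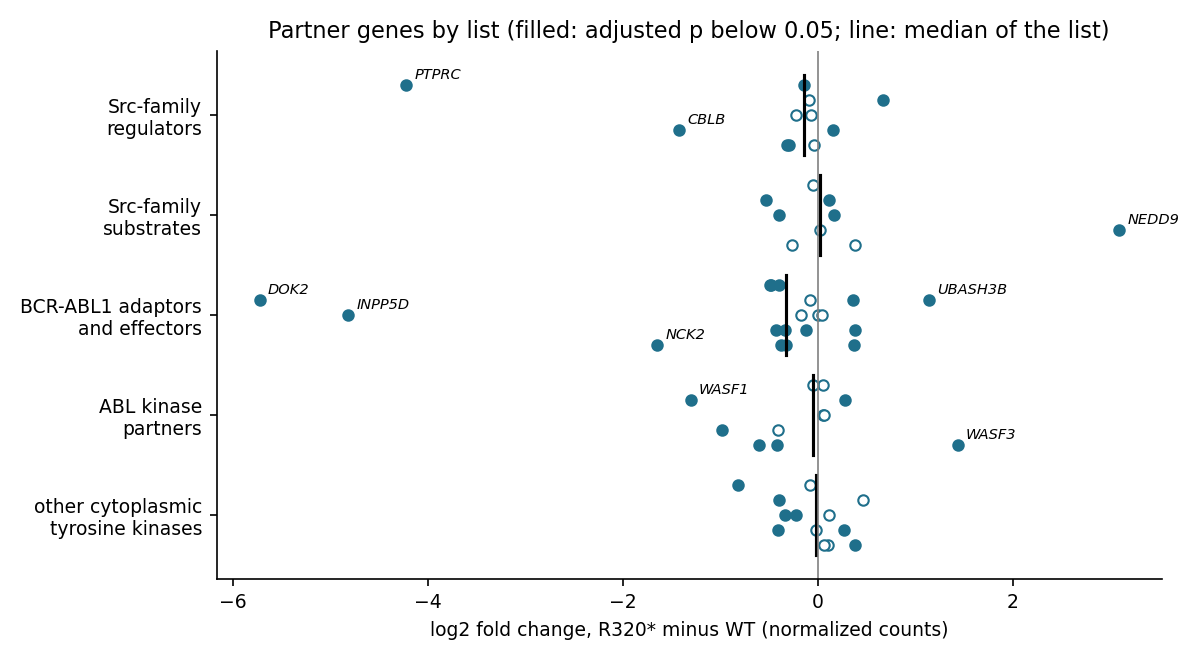
Log2 fold change, R320* minus WT, of the tested genes in 5 lists of partner genes; filled points have an adjusted p below 0.05 (limma), vertical bars are list medians and labelled points exceed 1 in size. PTPRC, INPP5D and DOK2 lie below −4, the positions of INPP5D, DOK2 and NEDD9 depend on the pseudocount because 1 genotype is near 0, and most other genes lie within 1 of 0.

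The 5 nearest tested genes on each side of each kinase gene were compared with it. Some of them were distant: the farthest lay 1843 kb from YES1, 1984 kb from FYN and 1857 kb from LYN. The 10 genes chosen so around YES1 were all higher in R320*, with a median log2 fold change of 0.58, against 26.4% higher among all genes. ENOSF1, which lies 8.96 kb away, averaged 3961 ± 62.5 in R320* and 2007 ± 35.8 in WT (log2 fold change 0.98, adjusted p = 1.14e-11 by limma), beside 0.87 for YES1. LINC00470, on the other side, averaged 319 in R320* and 223 in WT (0.52, adjusted p = 0.00307). Over a wider window of 32 tested genes, 7 towards the chromosome end and 25 on the other side, 23 were higher, 1 was lower and the rest did not pass, with a median of 0.43. The YES1 increase thus stood among increases of most genes around it, and their part in the YES1 result was not tested.

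Around FYN the picture was mixed. Of the 5 nearest tested genes on each side, none were higher, 6 were lower and 4 did not pass, with a median of −0.55. Among all genes tested, 26.4% were higher and 27.4% lower. TRAF3IP2, the nearest on one side at 54.5 kb, averaged 448 in R320* and 845 in WT (log2 fold change −0.91, adjusted p = 7.98e-08 by limma), and TUBE1 on the other averaged 1015 in R320* and 1158 in WT (−0.20, adjusted p = 0.0468). A further 4 neighbours passed the test. SLC16A10 averaged 89.4 in R320* and 196 in WT, LAMA4 29.1 in R320* and 80.2 in WT, and MARCKS 713 in R320* and 1303 in WT. RFPL4B had no read in any R320* library and averaged 213 ± 20.1 in WT, so it was tested only through its WT values. It is counted among the 6 lower, and no fold is given for it. REV3L, between these genes, averaged 1722 in R320* and 1662 in WT and did not pass (adjusted p = 0.454; named after its values were seen). Over 25 genes on each side, 10 were higher and 18 lower, with a median of −0.09. FYN fell further than each of the 10 apart from RFPL4B, which has no fold to compare.

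**Figure D5:**
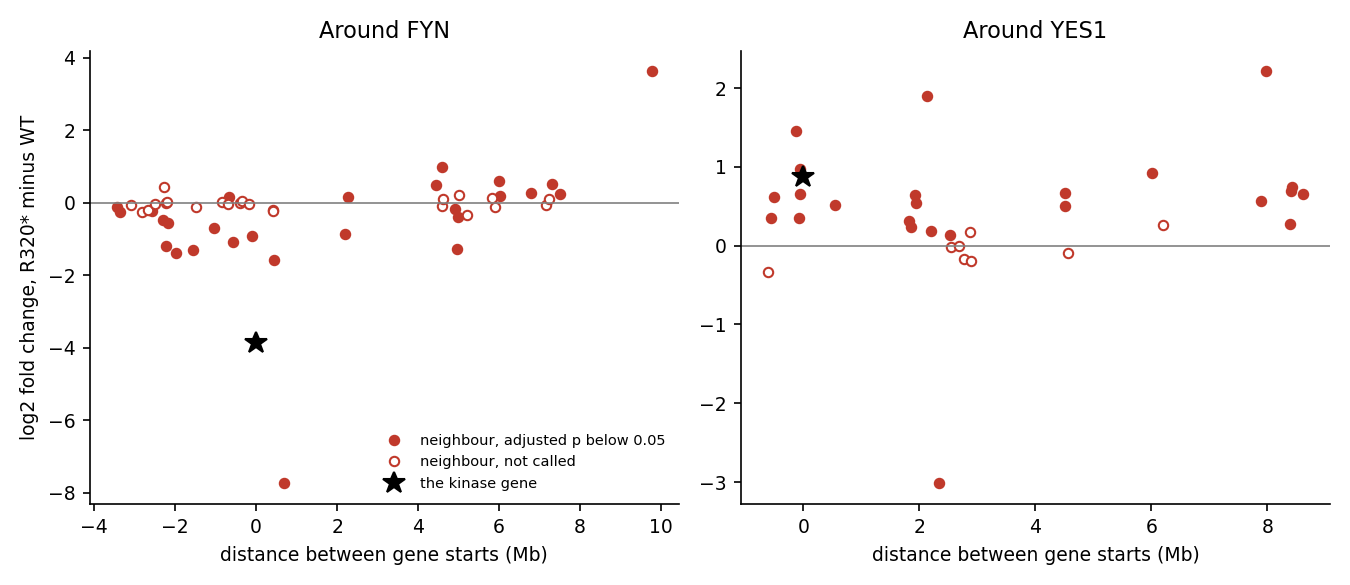
Log2 fold change, R320* minus WT, of up to 50 tested neighbours against the distance in Mb of their lowest coordinate from that of FYN (left) and YES1 (right); the star is the kinase gene, filled points have an adjusted p below 0.05 (limma), and the point of RFPL4B near −8 depends on the pseudocount. The neighbours of YES1 lie mostly above 0 and surround its star, whereas FYN lies far below most of its neighbours.

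Around the other genes, of 10 neighbours each, 3 were higher and 5 lower around LYN, 5 and 1 around ABL1, 2 and 2 around BCR, 4 and 2 around ABL2, 5 and 0 around SRC, 3 and 1 around LCK, and 2 and 2 around CSK. The shares over all genes tested were 26.4% higher and 27.4% lower. Over 25 genes on each side of SRC, 22 were higher and 3 lower, with a median of 0.20, while SRC itself was at −0.22 and did not pass. LYN thus rose among neighbours with a median of −0.14: TGS1 on one side was higher (log2 fold change 0.32, adjusted p = 4.44e-05 by limma) and RPS20 on the other was lower (−0.18, adjusted p = 0.00361). EXOSC2, 8.15 kb from ABL1, was higher (0.37, adjusted p = 7.68e-06), and the 10 neighbours of ABL1 had a median of 0.30, beside its own 0.24. Over 25 genes on each side of ABL1 the median was 0.04, with 19 higher and 10 lower. QRFP on the other side of ABL1, RAB36 beside BCR, TOR3A beside ABL2, MTMR9LP beside LCK, EDC3 beside CSK, and MANBAL and BLCAP on either side of SRC did not pass the test. FBXW4P1, whose span overlaps that of BCR, was higher (0.82, adjusted p = 0.00448), as were SOAT1 beside ABL2 (0.40, adjusted p = 6.39e-05) and ULK3 beside CSK (0.55, adjusted p = 3.95e-06). HDAC1 beside LCK was lower (−0.15, adjusted p = 0.00505).

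The genes most like FYN and YES1 over the 6 libraries were found by the smallest Euclidean distance between mean-centred log2 profiles. For FYN these were MYEOV (distance 0.07), EGF (0.17) and ABLIM1 (0.42). MYEOV had 168, 199 and 246 normalized counts in R320* and 2924, 2971 and 3127 in WT, so R320* replicate 3 was the highest R320* library, as it was for FYN. EGF, which encodes epidermal growth factor, averaged 16.2 in R320* and 238 in WT, and ABLIM1 62.4 in R320* and 1030 in WT. For YES1 the nearest were TBC1D12 (distance 0.09), SLC39A8 (0.10) and MGAT4A (0.11), which lie on other chromosomes. TBC1D12 had 1156, 1041 and 981 normalized counts in R320* and 589, 540 and 580 in WT. With 6 libraries in 2 genotypes, such likeness mostly states a similar fold change.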

How the data were processed

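Total RNA of 6 K562 samples was sequenced after TRIzol extraction and a NEBNext Ultra II RNA library kit, per the labels' protocols. HISAT2, featureCounts, DESeq2, Salmon and the hg38 build are named in the submitters' processing notes; which tool made which table, in what version and with what settings, and whether strand was used, is not given in the sources used here. The deposited signal values are read counts that the authors divided by 1 factor per library. They were whole multiples of 1 read in 100% of values (tolerance 1e-06), so reads were recovered. The deposited RPKM values were made by the authors, and their column sums, 721735 to 786389, would also fit TPM values of a table that lacks some genes.

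Entrez identifiers were matched to RefSeq symbols, positions and promoter windows (GRCh38.p14); 27745 of 28395 matched. LYN and SRC are named without a promoter window. Normalized counts were kept for genes reaching 10 in 3 or more libraries and RPKM for genes reaching 0.5 in 3 or more. Both were put on a log2 scale, after adding 1 and 0.1, and fitted with limma 3.58.1 in R 4.3.3, using empirical Bayes and an intensity trend. Benjamini-Hochberg adjustment ran over all genes tested, and genes below 0.05 were called. The fit was tested on simulated data. Replicate libraries differed beyond counting error (chi-square of 5.05 to 8.26 per gene between pairs), and edgeR 4.0.16 gave a common coefficient of variation of 6.87%.

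The members and all gene lists were chosen with earlier results of these data known. The rule for named genes took the 9 members, RUNX1, 3 other Src-family genes, in each list up to 4 tested genes of smallest adjusted p, the nearest tested gene on each side of each member (by start position), 4 more passing neighbours of FYN, and the 3 profiles most like FYN and like YES1. Alternatives were other pseudocounts, filters, scalings and variance models, each library left out, a block on the replicate number, the RPKM table, and edgeR and DESeq2 1.42.0 on the recovered reads. Protein sequences, isoforms, alleles and raw reads were not analysed here, and some genes that the lists held are not reported here. Tables were joined with pandas 2.3.3 in Python 3.11.15, and figures drawn with matplotlib 3.10.9.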

Additional observations from a re-analysis of the deposited data

How the results depend on the processing

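FYN, LYN and YES1 passed the test in the same direction under all alternatives run. Their log2 fold changes ranged over the alternatives to the count fit from −4.03 to −3.39 for FYN, 0.62 to 0.69 for LYN and 0.82 to 0.93 for YES1, and over those to the RPKM fit from −3.47 to −3.01, 0.61 to 0.72 and 0.87 to 0.97. The RPKM table ended the calls of BCR (0.15, adjusted p = 0.341), ABL1 (0.15, adjusted p = 0.249) and ABL2 (0.16, adjusted p = 0.226), and the sign of CSK, which had not passed, was reversed there (−0.00069). Without the intensity trend limma no longer called BCR (0.21, adjusted p = 0.0603) or ABL2 (0.13, adjusted p = 0.0750). With 1 library left out at a time, ABL2 ranged from 0.11 to 0.16 and was lost in 3 of 6 fits, and SRC ranged from −0.32 to −0.16 and passed in 1. In RPKM, CSK, never called, had the other sign with every library scaled to the same sum (0.075) and in 3 leave-one-out fits, which ranged from −0.10 to 0.12. The cause was not tested for any of these.

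The count of members called ranged from 4, without the trend, to 7, without R320* replicate 2, in normalized counts and from 3 to 4 in RPKM. Over all genes it ranged from 6692 to 7854 and from 4497 to 5798; edgeR called 7660 genes and DESeq2 7470, each with 6 members. Same-numbered libraries did not deviate together in counts (correlations of 0.03, −0.0031 and −0.0033) or in RPKM (−0.027, 0.0028 and −0.059). No pairing by number was thus seen, but such correlations cannot exclude that same-numbered libraries were handled together. With the replicate block, 7854 genes and 6 members were called in counts, and 4865 genes and 3 members in RPKM. Read floors cover counting error only, and values of LCK, FGR and FRK rest on few reads.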

Other observations

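LCK and FRK were the kinase genes on which the deposited tables differed most at low levels. LCK had 0 reads in R320* replicates 2 and 3 but 0.140 and 0.191 RPKM there, and FRK had 0, 1.99 and 4.04 normalized counts in WT but averaged 0.858 RPKM. How each table assigned reads to these genes is not given in the sources used here. A count of 0 allows up to 3 reads, or 2.98 normalized counts in R320* replicate 2.

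WT replicate 1 stood apart from the other WT libraries in RPKM for several of the kinase genes, with the highest BCR (26.4) and CSK (20.4) and the lowest SRC (1.90) of the 6 libraries. In normalized counts the same library had the highest BCR of the WT libraries (4591) and the highest CSK (1516), but its SRC (305) lay close to the other WT values.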
